A study of Mus musculus with 14 samples.

Results

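The 980 regions described here are all those on mouse chromosomes 13 and 18 in a deposited list of SOX10 binding regions, which holds 7929 regions in all (12.4%). The 2 chromosomes were chosen by measured values of this same list, namely a high number of regions per megabase (Mb) beside an unremarkable signal, so density and signal are given as descriptions and no test was made. Chromosome 13 carried 587 regions and chromosome 18 carried 393. Their working description was dense but weak. Density was itself a ground of the choice, and weakness was not borne out: their median signal was close to that of the whole list. Among the other dense chromosomes, its intervals lay under those of chromosomes 4 and 11 and overlapped those of chromosomes 15 and 19.

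The list compares 2 PY230 SOX10 ChIP samples with 1 PY230 SOX10 control sample. PY230 is a mouse mammary tumor cell line. The ChIP samples came from cells carrying SOX10 with an AVI tag and BirA, the enzyme that places biotin on that tag, and the control came from control cells taken through the same streptavidin pull-down with extra SDS washes. All 3 samples are labelled strain C57BL6J, adult, mammary tumors: the cells were transplanted into syngeneic mice, and tumor cells were isolated by cell sorting. The labels do not say whether each sample is a separate tumor, whether the tagged line is 1 clone, or what the control cells lacked. The series has 14 samples in 8 groups. Its H3K27ac libraries from normal mammary cells (4 groups of 2 samples, with 2 inputs) and the 1 PY230 input were not analysed here. The list is 1 result for the ChIP samples together, so no value below has a spread between replicates, and the depth of the libraries is unknown. The intervals below are at 95%, cover counting error only and treat neighbouring regions as independent, which they are not.

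SOX10 is a transcription factor of the SoxE group that binds DNA through an HMG box. It is known for specifying neural crest cells and for maintaining their glial and melanocyte descendants, and in the mammary gland it is known from stem-like and progenitor-like epithelial states. Chromatin immunoprecipitation recovers DNA fragments held by the factor, and a region is a stretch of the genome where such fragments pile up above a control. In ChIPmentation, the form used here, a transposase adds the sequencing adapters to bead-bound chromatin. The biotin route replaces an antibody: biotin binds streptavidin tightly enough to allow harsh washes.

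Chromosome 13 held 4.98 regions per Mb (interval 4.59 to 5.40) and chromosome 18 held 4.42 (4.00 to 4.88). The whole list had 3.03 per Mb, and the 17 other autosomes together had 3.06. The densities were thus 1.63 and 1.44 times that of the other autosomes. Ordered by density among the 19 autosomes, chromosome 13 came 4th, after 4, 19 and 15. Chromosome 18 came 6th, after those and after 13 and 11. The other autosomes ran from 2.1 per Mb on chromosome 14 to 5.39 on chromosome 4. The intervals of chromosomes 13 and 18 overlapped each other and those of chromosomes 11, 15 and 19, so the order within this dense set is not resolved by the counts. Chromosomes 4, 11, 13, 15, 18 and 19 stood apart from the remaining 13 autosomes, which held 2.57 per Mb together. Against those 13 the ratios were 1.94 for chromosome 13 and 1.72 for chromosome 18.

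Counted per gene rather than per length, chromosomes 13 and 18 moved to the head of the order. Chromosome 18 held 76.9 regions per 100 protein-coding genes (69.5 to 84.9) and chromosome 13 held 70.8 (65.2 to 76.8). Next came chromosome 15 at 68.7, chromosome 4 at 62.9 and chromosome 1 at 54. The intervals of chromosomes 13, 15 and 18 overlapped, and that of chromosome 4 overlapped those of 13 and 15. By contrast, chromosome 19, 2nd in regions per Mb, held 45.0. Chromosome 11 held 34.9, close to the 35.6 of the 17 other autosomes together. Chromosomes 13 and 18 have 829 and 511 protein-coding genes in the gene table of GRCm38.p6. That table was used only for the number of genes on each chromosome, because its coordinates belong to another build than mm9, and this comparison was chosen after the values were seen.

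**Figure D1:**
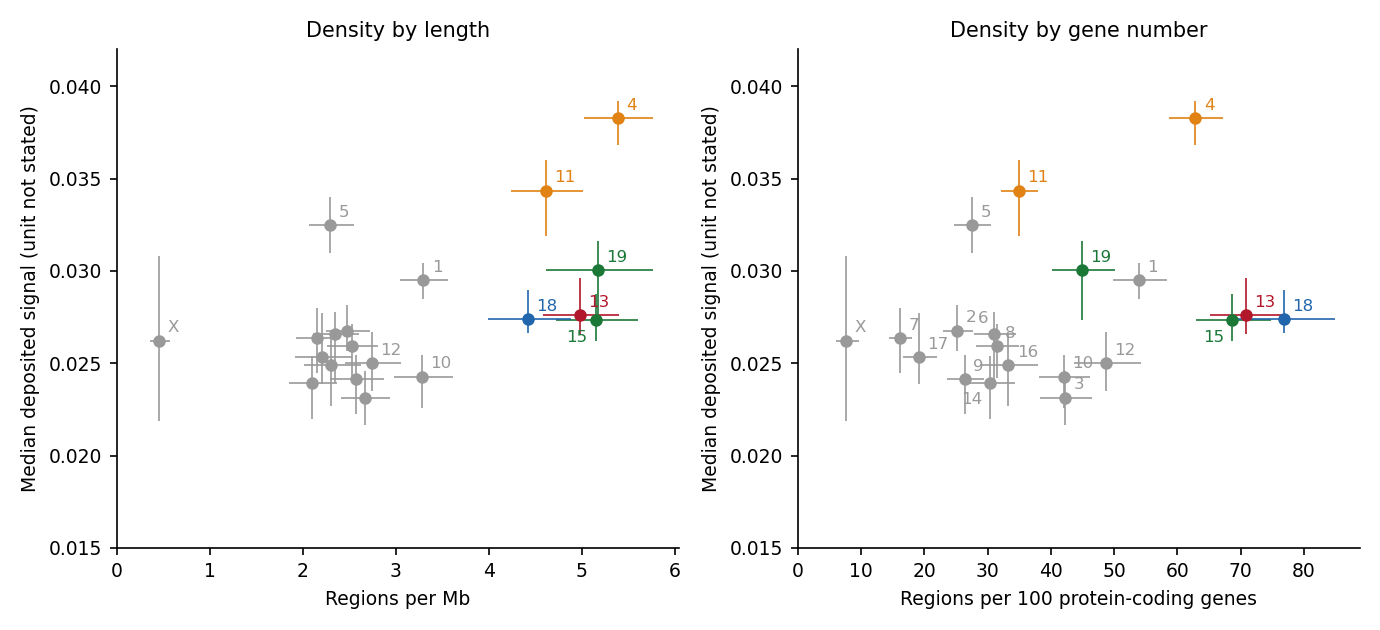
Median deposited signal (vertical axis, unit not stated, starting at 0.015) against regions per Mb (left) or per 100 protein-coding genes (right) for each chromosome, with 95% intervals of counting error as bars. Numbers are chromosomes; in the left panel the labels of the crowded group near 2.57 per Mb are left out. Chromosomes 13 and 18 lie at 4.98 and 4.42 per Mb with median signals of 0.0276 and 0.0274, while chromosomes 4 and 11 lie higher on the signal axis.

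The signal of a region is the number deposited with it. No source used here gives its unit or formula. When signal was multiplied by width in the 7282 regions narrower than 1500 bp and not listed at 0, 99.9% of the products were whole multiples of 0.0479 (within 0.05 of a step), as a coverage averaged over bases would give. The median was 0.0276 on chromosome 13 (0.0266 to 0.0296) and 0.0274 on chromosome 18 (0.0266 to 0.0290). The list median was 0.0280. These medians ranked 6 and 7 of the 19 autosomes, above the median of 0.0263 in the 13 less dense autosomes. They were also next to the 0.0280 of chromosomes 15 and 19 together, which held 5.16 regions per Mb. They were well under the 0.0366 of chromosomes 4 and 11 together. The interquartile ranges were 0.0199 to 0.0360 on chromosome 13 and 0.0208 to 0.0360 on chromosome 18. Signal within each chromosome thus varied far more than the medians differed between most chromosomes.

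The regions of highest signal were a smaller share of chromosomes 13 and 18 than of the list, as on most autosomes. Among the 793 regions that make up the highest 10.0% of the list (signal of 0.0481 or more), 29 were on chromosome 13 and 23 on chromosome 18. That is 4.94% of the regions of chromosome 13 (3.33 to 7.02%) and 5.85% of those of chromosome 18 (3.75 to 8.65%). The share was 6.63% in the 13 less dense autosomes, 9.06% on chromosomes 15 and 19 and 24.8% on chromosomes 4 and 11. By this share chromosomes 13 and 18 ranked 12 and 10 of the 19 autosomes. Per Mb they held 0.246 and 0.259 such regions, more than the 0.170 of the 13 less dense autosomes. Chromosomes 4 and 11 held 346 of the 793. Of the 647 regions at 0.05 or more, 26 were on chromosome 13 and 17 on chromosome 18. At 0.08 or more the numbers were 1 and 3 of 106, and at 0.1 or more they were 0 and 2 of 76. The highest signal on chromosome 13, 0.0867, was the lowest but 2 among the highest values of the 19 autosomes.

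The whole list was cut by signal into 10 classes of equal size to see where the excess of regions lay. Chromosome 13 held between 1.42 and 2.07 times as many regions per Mb as the 17 other autosomes in each of the 9 lower classes, and 0.757 times in the highest class. For chromosome 18 the ratios were 1.18 and 1.26 in the lowest pair of classes, 2.14 in the 5th and 1.44 in the 9th, then 0.796 in the highest. Its lower bound fell under 1 in the 1st, 2nd and 6th classes (0.805, 0.881 and 0.979). In the highest class the intervals of the 2 chromosomes reached from 0.507 to 1.09 and from 0.504 to 1.19, so a fall under 1 was not resolved. The ratios there also turned on the chromosomes compared. With chromosomes 4 and 11 left out of the others, the ratios in the highest class were 1.26 and 1.33, with intervals reaching from 0.845 to 1.81 and from 0.841 to 1.99. In the 9 lower classes, the ratios to those 15 autosomes ran from 1.37 (2nd class) to 2.45 (9th) on chromosome 13. On chromosome 18 they ran from 1.17 (1st) to 2.20 (5th). So the excess on chromosome 13 was spread over low, middle and fairly high signals. For chromosome 18, among the 9 lower classes, the ratios were lowest in the 1st and 2nd and highest in the 5th. Most of its class intervals overlapped, so where its excess lay is not resolved by the counts. Neither chromosome peaked in the highest class. Against those same 15 autosomes, chromosomes 4 and 11 had 0.951 in the lowest class and 6.41 in the highest.

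**Figure D2:**
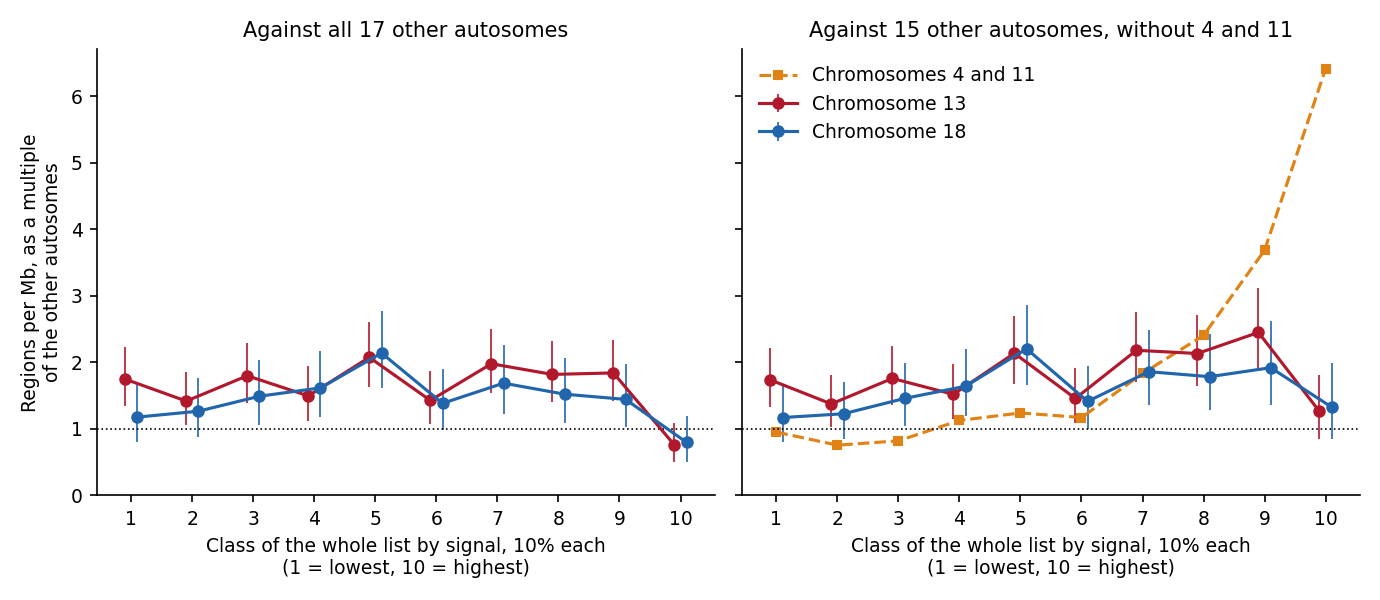
Regions per Mb on chromosomes 13 and 18 as a multiple of all 17 other autosomes (left) or of the 15 without chromosomes 4 and 11 (right, with chromosomes 4 and 11 themselves shown against the same 15) on the vertical axis, in each of 10 equal classes of the whole list by signal (horizontal axis, 1 lowest), with 95% Poisson intervals of the chromosome's own count as bars. The dotted line marks equal density; in the highest class, chromosomes 13 and 18 are at 0.757 and 0.796 against all 17 others and at 1.26 and 1.33 without chromosomes 4 and 11.

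Density was not even along either chromosome. Complete windows of 5 Mb were called dense when they held 23 or more regions, which is at least 1.5 times the density of the list. Of 512 windows over the whole list, 104 were dense (20.3%). On chromosome 13, 12 of 23 windows were dense (52.2%), and on chromosome 18, 8 of 17 (47.1%). The 13 less dense autosomes had 48 of 354 (13.6%), chromosomes 15 and 19 had 17 of 32, and chromosomes 4 and 11 had 19 of 54. The median window held 24 regions on chromosome 13 and 22 on chromosome 18, against 12 in the list. In all, 20 of the 40 windows of both chromosomes were dense. A window count just under the threshold, 22, occurred at 70 to 75 Mb and 90 to 95 Mb of chromosome 13 and at 45 to 50 Mb of chromosome 18, and the lowest dense count, 24 on chromosome 13 and 25 on chromosome 18, lay little above it.

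The densest window of chromosome 13 lay at 100 to 105 Mb and held 57 regions with a median signal of 0.0276. It was followed by 60 to 65 Mb with 47 regions, 30 to 35 Mb and 110 to 115 Mb with 45 each, and 35 to 40 Mb with 41. The medians of these 4 windows were 0.0298, 0.0268, 0.0265 and 0.0302. Dense windows joined into one long stretch, from 25 to 55 Mb, with 208 regions (6.93 per Mb, 35.4% of the chromosome), and a shorter one from 95 to 105 Mb, with 92. Other windows of the chromosome were nearly empty: the window at 65 to 70 Mb, directly after the window of 47, held 1 region, that at 75 to 80 Mb held 4, and those at 10 to 15 Mb and 15 to 20 Mb held 6 each.

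Chromosome 18 had its densest window at 35 to 40 Mb, with 50 regions and a median signal of 0.0283. The next were 65 to 70 Mb with 47 regions (0.0275), 55 to 60 Mb with 33 (0.0258), 10 to 15 Mb with 31 (0.0305) and 60 to 65 Mb with 30 (0.0267). Dense windows joined into stretches from 30 to 45 Mb, with 103 regions (6.87 per Mb), and from 55 to 70 Mb, with 110 (7.33 per Mb). Those at 10 to 15 Mb and 20 to 25 Mb stood alone. The sparsest window, at 25 to 30 Mb, held 2 regions, and the window at 50 to 55 Mb, just before the second stretch, held 5. Windows at 15 to 20 Mb and 80 to 85 Mb held 9 each. No region of the list begins within the first 3 Mb of a chromosome, so the first window of each chromosome is listed over only part of its length. The 5 densest windows held 235 regions of chromosome 13, on 21.7% of its windows, and 191 regions of chromosome 18, on 29.4%. Relative to its mean, the variance of the window counts was 9.33 on chromosome 13 and 7.60 on chromosome 18, less than on chromosomes 4 (16.3), 11 (41.6) and 15 (16.7) and more than on chromosome 19 (4.05).

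**Figure D3:**
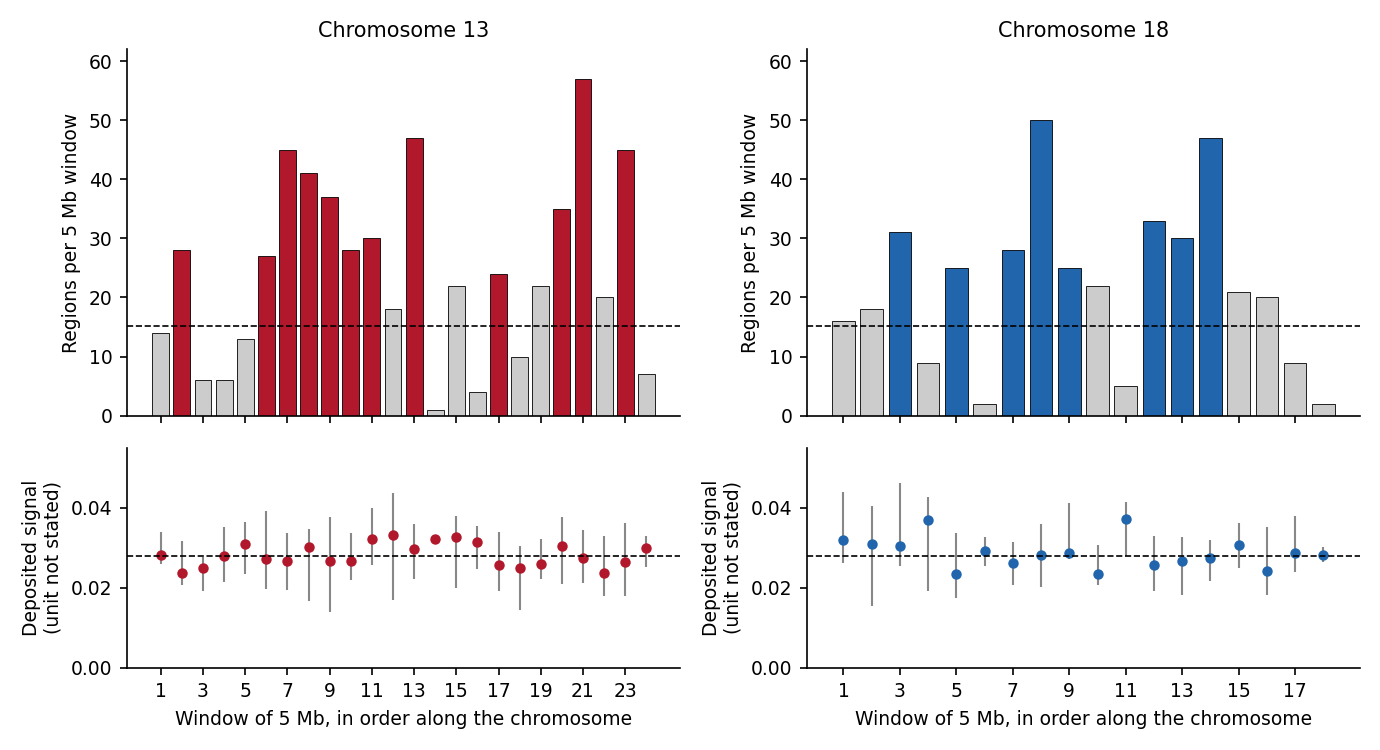
Number of regions (upper panels) and median signal (lower panels) in successive 5 Mb windows along chromosomes 13 and 18, numbered in order from the chromosome start. Coloured bars are dense windows, dashed lines mark the list density and the list median, and vertical lines span the quartiles; the last window of each chromosome is incomplete. Counts swing from 1 to 57 on chromosome 13 and from 2 to 50 on chromosome 18, while the median signal of windows with 10 or more regions stays between 0.0236 and 0.0332 and between 0.0234 and 0.0319.

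Dense windows of chromosomes 13 and 18 were not windows of higher signal. On chromosome 13, regions in dense windows had a median of 0.0275 and the rest 0.0278. On chromosome 18 the medians were 0.0273 and 0.0281. Chromosomes 4 and 11 differed in this: their dense windows had medians of 0.0391 and 0.0389 against 0.0330 and 0.0285 elsewhere. So did chromosome 15, with 0.0283 against 0.0228, while chromosome 19 had 0.0294 against 0.0305. In this split, the rest includes the incomplete last window of each chromosome, even where it was crowded. That window held 40 regions on chromosome 11 (median 0.0466), 20 on chromosome 15 (0.0175) and 53 on chromosome 8 (0.0295). For chromosomes 13 and 18 it held 7 and 2. Of the 20 dense windows on chromosomes 13 and 18, 7 had a median above that of the list, against 17 of 19 on chromosomes 4 and 11 and 11 of 17 on chromosomes 15 and 19. In the 13 less dense autosomes it was 14 of 48, with medians of 0.0261 in dense windows and 0.0265 elsewhere, and over the whole list 49 of 104, so the absence of higher signal was not particular to chromosomes 13 and 18. The highest 10.0% of the list made up 4.95% of the regions in dense windows of chromosome 13 and 4.90% in its other windows. On chromosome 18 these shares were 4.46% and 8.87%. Across windows with 10 or more regions, Spearman's rho between the number of regions and the median signal was 0.036 on chromosome 13 (19 windows) and -0.245 on chromosome 18 (13 windows). It was 0.442 on chromosomes 4 and 11 pooled (35 windows), but 0.257 on chromosome 4 and 0.277 on chromosome 11 taken singly. Single autosomes ran from -0.511 on chromosome 8 to 0.283 on chromosome 1. These are descriptions over windows of the same libraries.

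**Figure D4:**
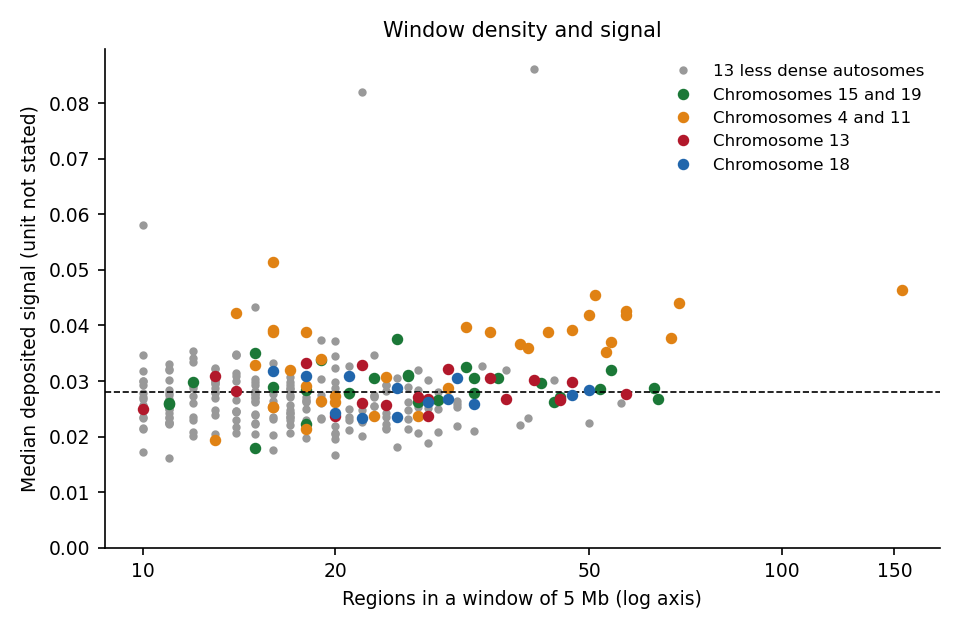
Median signal (vertical axis, unit not stated) against number of regions (horizontal axis, log scale) for 5 Mb windows holding 10 or more regions; the dashed line is the list median. Windows of chromosomes 13 and 18 reach 57 and 50 regions at medians near the list's 0.0280, while dense windows of chromosomes 4 and 11 lie mostly above it.

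Regions on both chromosomes were of common width. The median was 702 bp on chromosome 13 (670 to 732) and 689 bp on chromosome 18 (652 to 756), beside 683 bp in the list. The quartiles were 515.5 and 989.5 bp on chromosome 13, and 493 and 1023 bp on chromosome 18. Wide regions of 1500 bp or more were 7.34% of the list. Chromosome 13 had 50 of them (8.52%) and chromosome 18 had 34 (8.65%), near that background and above the 4.90% of the 13 less dense autosomes. Chromosome 4, with 15.9%, and chromosome 15, with 12.8%, had larger shares. Together the regions covered 486 kb of chromosome 13 (0.413% of its length) and 323 kb of chromosome 18 (0.363%), against 0.242% in the list.

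Wider regions had somewhat higher signal. On chromosome 13 the median signal was 0.0247 in the 59 regions under 400 bp, 0.0258 in the 293 from 400 to 800 bp, 0.0306 in the 185 from 800 to 1500 bp, and 0.0316 in the 50 widest. On chromosome 18 the same classes, with 53, 180, 126 and 34 regions, had 0.0236, 0.0264, 0.0298 and 0.0298. The 17 other autosomes together differed mainly in the widest class, where their median was 0.0345. Of their 495 regions in that class, 173 were on chromosomes 4 and 11, where signal was higher. Many regions rested on few reads if the signal is read as a coverage with reads of 54 bp. That length divides the steps without remainder in 39.2% of the 7282 regions, and in more regions than any other length tried between 40 and 70 bp, but most regions would hold parts of reads. So read, the median region held 7.24 read equivalents on chromosome 13 and 7.91 on chromosome 18 (7.50 in the list), and 64.9% and 63.4% of regions held under 10. Read equivalents are a reading of the values and not counts made by the authors, and whether the control was subtracted from them is not stated. Summed over regions they came to 46.6 per Mb on chromosome 13 and 42.2 on chromosome 18, against 30.4 on the 17 other autosomes and 73.4 on chromosomes 4 and 11.

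Regions on both chromosomes lay closer together than on the less dense autosomes. Shorter gaps follow from the high density by which the chromosomes were chosen, so they are no separate result. With the limit for close neighbours set at 10% of each chromosome's mean spacing, their share was 0.955 and 0.889 times that of the other autosomes. The median gap between neighbours was 47.3 kb on chromosome 13 (quartiles 10.1 and 152) and 46.5 kb on chromosome 18 (13.7 and 193), against 86.9 kb in the 13 less dense autosomes. Gaps under 10 kb made up 22.7% of neighbouring pairs in the list. They were 146 of 586 pairs on chromosome 13 (24.9%, 21.5 to 28.6%) and 80 of 392 on chromosome 18 (20.4%, 16.5 to 24.7%), both near that background. The 13 less dense autosomes had 19.8%, below the interval of chromosome 13 and within that of chromosome 18. Chromosomes 4 and 11 had 29.7% and chromosomes 15 and 19 had 27.4%. Gaps of 10 to 100 kb were 41.1% and 44.9% on chromosomes 13 and 18, against 32.7% in the 13 less dense autosomes. Gaps of 1 Mb or more were 20 (3.41%) and 16 (4.08%), against 9.79%.

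**Figure D5:**
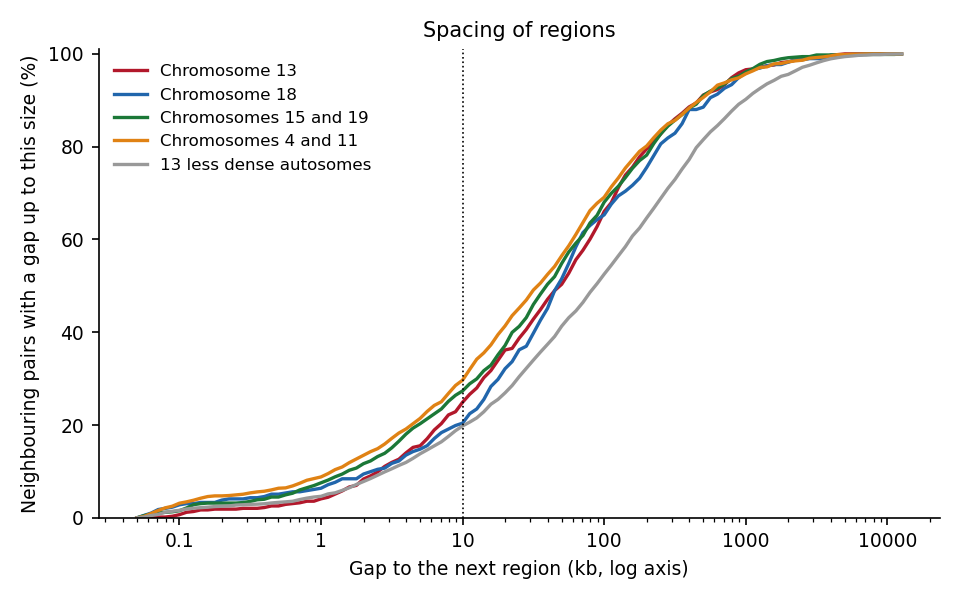
Cumulative percent of neighbouring pairs (vertical axis) by gap between neighbours in kb (horizontal axis, log scale; the dotted line is 10 kb). Between 10 kb and 1000 kb the curves of chromosomes 13 and 18 lie to the left of that of the 13 less dense autosomes, with medians of 47.3 and 46.5 kb against 86.9 kb.

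Neighbours less than 10 kb apart were joined into runs. Chromosome 13 had 102 runs holding 248 regions (42.2%), of which 75 were pairs and 4 had 5 regions. Chromosome 18 had 62 runs holding 142 regions (36.1%), of which 50 were pairs and the longest had 6. In the list 38.1% of regions were in runs, and the longest had 16. The runs of 5 on chromosome 13 were chr13:58687678-58703249 (median signal 0.0410), chr13:40814504-40833865 (0.0407), chr13:37597709-37619742 (0.0302) and chr13:6188628-6196360 (0.0237). The run of 6 on chromosome 18, chr18:47308181-47337151, had a median of 0.0241. Long runs were therefore found at both higher and lower signals than the list median. On chromosome 13, regions in runs had a median signal of 0.0299 and a median width of 776.5 bp, against 0.0266 and 658 bp for single regions. On chromosome 18 the signals were 0.0272 in runs and 0.0277 for single regions.

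The longest empty stretches of the 2 chromosomes ran from 76156160 to 81022494 on chromosome 13 (4.87 Mb) and from 25135995 to 31919190 on chromosome 18 (6.78 Mb). The next on chromosome 13 was 4.41 Mb long, from 64559977 to 68974417, and the next on chromosome 18 was 3.91 Mb long, from 16436358 to 20346510. Mean spacing was 201 kb on chromosome 13 and 226 kb on chromosome 18.

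The 10 regions of highest signal on chromosome 13 ranged from 149 to 1338 bp in width. The first, chr13:25099699-25099847, was 149 bp wide with a signal of 0.0867, rank 93 in the list, and held 5.0 read equivalents. Next were chr13:72768056-72768347 (292 bp, 0.0793) and chr13:37633451-37633851 (401 bp, 0.0745). A high mean over so few bases can rest on few reads. The region chr13:40822523-40823860 is of another kind: at 1338 bp and 0.0657 it held 34.0 read equivalents, and it lay 393 bp from chr13:40821312-40822129 (818 bp, 0.0644) in a run of 5. The widest region, chr13:71514320-71518382, spanned 4063 bp at 0.0323, near the list median, and held 50.7 read equivalents, the most on the chromosome. A region typical in signal was chr13:100161322-100161966, 645 bp wide at 0.0280 with 7.0 read equivalents.

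Chromosome 18 had 2 regions far above the rest. They were chr18:65996979-65997076, 98 bp wide with a signal of 0.290 (rank 18 in the list, 10.3 times its median), and chr18:54858735-54859036, 302 bp wide with 0.253 (rank 23). The first is the narrowest region of the whole list and held 11 read equivalents. The third highest, chr18:3116398-3119283, was 2886 bp wide at 0.0840 and held 93.8 read equivalents, the most on the chromosome. It followed chr18:3115597-3116335 (739 bp, 0.0643) after 62 bp, and this pair is the first on the chromosome. The widest, chr18:65277307-65280619, spanned 3313 bp at 0.0348, and chr18:50225383-50226138 (756 bp, 0.0280) was nearest the list median.

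High signals on chromosome 18 gathered near its start. Of its 23 regions in the highest 10.0% of the list, 14 lay in the first 20 Mb, among 74 regions there (18.9%), and 9 lay among the other 319 (2.82%). The median signals were 0.0310 and 0.0270. This split was chosen after the values were seen. Regions with a listed signal of 0 numbered 6 on chromosome 13 and 4 on chromosome 18, of 65 in the list, and were narrow, with median widths of 334.5 and 285.5 bp. No region is assigned to a gene, and no sequence is printed, because the annotation at hand is of another build than the list.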

How the data were processed

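ChIPmentation libraries of 2 PY230 SOX10 ChIP samples were compared by the authors with 1 control sample in a deposited list of regions with a signal for each, the only values used. FastQC, Bowtie 0.12.8, SAMtools 1.3.1, MACS2 2.1.1 and mm9 are named per the submitters' processing notes; how regions were called, how duplicates were handled and how the signal was computed is not given in the sources used here. Columns that belong to no sample numbered 0.

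Starts were written 1-based. The largest end coordinate stood for each chromosome's length, and windows of 5 Mb took regions by their start. Intervals at 95% were exact Poisson for densities, Clopper-Pearson for shares and order-statistic for medians. Regions named were, per chromosome, the 10 highest in signal, the 5 widest, the one nearest the list median, the 5 densest and 3 sparsest complete windows (tied windows were kept) and the 5 runs with the most regions; only some of them are printed. The planned assignment of regions to genes was not run, since no mm9 annotation was at hand. The chromosomes and the measures were chosen with earlier results of these data known. Python 3.11.15, numpy 2.4.6, pandas 2.3.3, scipy 1.17.1 and matplotlib 3.10.9 were used, and the functions were tested on simulated data. Alternatives were other lengths, windows, gap limits, signal sets and comparison chromosomes.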

Additional observations from a re-analysis of the deposited data

How the results depend on the processing

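No paired analysis was possible because the ChIP samples enter 1 list together, and for the same reason no library could be left out. Per protein-coding gene, the density ratios to the other autosomes were 1.99 for chromosome 13 and 2.16 for chromosome 18. Without chromosomes 4 and 11 among the others, the ratio of chromosome 13 was 1.79. In the highest 10% by signal the density ratios were 0.757 and 0.796 against all other autosomes, with intervals that included 1. Without chromosomes 4 and 11 they were 1.26 and 1.33. These 3 comparisons, and a gap limit of 10% of the mean spacing, were chosen after seeing the data. With dense set at 2 times the list density, 30.4% and 23.5% of windows were dense on chromosomes 13 and 18. The share also moved with window placement and size, more so on chromosome 18. Windows of 5 Mb begun at 2.5 Mb gave 56.5% and 64.7%. Windows of 10 Mb gave 54.5% and 37.5%, and windows of 2 Mb gave 46.6% and 43.2%. The share of close neighbours relative to the other autosomes went from 1.10 and 0.897 at 10 kb to 0.700 and 1.09 at 1 kb. At a limit of 10% of each chromosome's mean spacing, it was 0.955 and 0.889. The share among the highest regions, relative to the list, went from 0.494 and 0.585 in the highest 10% to 0.825 and 0.865 in the highest 25%. Median width was 808 and 793.5 bp in the 50% with the highest signal. Single regions of chromosome 13 had a median width of 658 bp and a median signal of 0.0266. The cause of these changes was not tested. Depth is unknown, so the precision of each signal cannot be given.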
